A study of Homo sapiens with 12 samples.

Results

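Histone H3 acetylated at lysine 27 (H3K27ac), which marks promoters and enhancers in use, was examined across the cytokine gene cluster that holds TNF, LTA and LTB. The cells were RPMI 8226, an established line of multiple myeloma, a cancer of plasma cells. Peaks were taken when they overlapped the stretch of chromosome 6 from 50 kb before to 50 kb after the RefSeq spans of the 3 genes (hg38, chr6:31510610-31632425, 122 kb). This gave 117 of the 573987 peaks that 12 CUT&RUN libraries held on chromosomes 1 to 22 and X. CUT&RUN cuts and sequences the DNA at sites where an antibody, here against H3K27ac, is bound. The libraries formed 4 groups of 3. They were CEBPB knockout cells, which lack the transcription factor C/EBPβ by their label, given 10 µM dexamethasone for 2 h (29 peaks); knockout cells given DMSO, the solvent (32 peaks); cells with a scramble control given 10 µM dexamethasone for 2 h (26 peaks); and scramble cells given DMSO (30 peaks). Dexamethasone is a synthetic glucocorticoid used against myeloma. By its title, the series asks what loss of C/EBPβ does to the response of enhancers to the drug. All groups share the same cell line. Whether the knockout cells were 1 clone or a pool is not given in the sources used here. The labels number the libraries of a group 1 to 3 without stating separate cultures, so the p-values cover the spread among these libraries and no more.

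TNF encodes tumour necrosis factor, an inflammatory cytokine made as a membrane protein and shed from the cell. LTA encodes lymphotoxin alpha, a secreted relative that binds the same TNF receptors. LTB encodes lymphotoxin beta, a membrane protein that holds lymphotoxin alpha at the cell surface in a complex that signals through the LTB receptor and is needed for lymphoid organs to form. All 3 genes are known targets of NF-kB in immune cells, glucocorticoids are known to lower TNF production, and C/EBPβ is known to bind promoters of inflammatory cytokine genes in myeloid cells.

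The RefSeq spans were chr6:31560610-31574324 for LTA, chr6:31575565-31578336 for TNF and chr6:31580558-31582425 for LTB. LTA and TNF run along the plus strand and LTB along the minus strand. The 250 bases before the TNF and LTB starts are shown because the first was under a peak in none of the 12 libraries and the second in all 12. They come from RefSeq (GRCh38.p14), chr6:31575315-31575564 on the plus strand and chr6:31582426-31582675 on the minus strand. Capitals mark matches, on either strand, to a C/EBP core (TTNNGNAA), a kappaB-type sequence (GGGNNTTTC) and a TATA box (TATAAA).
TNF: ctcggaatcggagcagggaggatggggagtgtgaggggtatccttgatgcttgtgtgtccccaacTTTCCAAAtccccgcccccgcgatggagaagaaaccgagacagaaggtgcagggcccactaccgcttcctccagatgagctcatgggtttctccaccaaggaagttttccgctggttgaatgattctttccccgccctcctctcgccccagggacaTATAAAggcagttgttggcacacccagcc
LTB: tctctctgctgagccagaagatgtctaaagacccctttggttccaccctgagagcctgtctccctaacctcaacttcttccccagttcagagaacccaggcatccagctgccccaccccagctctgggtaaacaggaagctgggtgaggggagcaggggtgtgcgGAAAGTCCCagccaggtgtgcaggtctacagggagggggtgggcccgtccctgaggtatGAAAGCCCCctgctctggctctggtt

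The TNF window held 1 match to the C/EBP core, TTTCCAAA, which began 185 bases before the start, and 1 TATAAA, 29 bases before it. The LTB window held 2 kappaB-type matches on the opposite strand, GAAAGTCCC and GAAAGCCCC, which began 85 and 26 bases before the start. A glucocorticoid receptor palindrome (GNACANNNTGTNC) had no match in either. Among 34789 RefSeq promoter windows of the same length, 33.2% held the C/EBP core, 4.18% the kappaB-type sequence, 0.328% the receptor palindrome and 10.8% TATAAA. The motifs did not overlap one another in these windows, and a match describes letters, not a bound site.

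Each library held 41164 to 56421 peaks covering 48.0 to 66.4 Mb, and without counts in the lists their read depth is unknown. The share of this covered length on chromosome 6 was 5.46 to 5.60% in the 6 knockout libraries and 5.24 to 5.41% in the 6 scramble libraries. Peaks lay within 25 kb of all 10 plasma cell marker genes examined in every library. The windows of other cell types' markers were not empty, and a window also takes in peaks of neighbouring genes. Of 8 T cell markers, LCK (6.67 to 10.7 kb), CD8A, CD4 and CD3G were covered in 12 of 12 libraries, CD3E had 0 to 1.34 kb and TRAT1 was listed at 0 in all. Of 8 myeloid markers 7 were covered in all 12, with SPI1 at 6.19 to 14.4 kb, and of 7 mature B cell markers 5, with BLK at 16.9 to 24.6 kb. CD14 fell in knockout cells with DMSO (log2 −0.86 ± 0.18, limma, adjusted p = 0.013) and the plasma cell gene TNFRSF17 rose (log2 0.52 ± 0.13, adjusted p = 0.030). Both calls were lost under some alternatives, with 9 and 7 of 13 passing. Each was the 1 call in its list, where 7.32% of all genes were called. In that comparison 5 of the 8 myeloid markers were above 0 and 3 below. Of the 10 plasma cell markers 6 were above and 4 below, so neither call stands for its list. Coverage within 25 kb of the targeted gene, CEBPB, was 3.97 to 4.73 kb in knockout cells with dexamethasone and 4.36 to 5.29 kb in knockout cells with DMSO. It was 4.08 to 4.63 kb in scramble cells with dexamethasone and 5.14 to 6.14 kb in scramble cells with DMSO. H3K27ac around the gene does not check its deletion.

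By the authors' −log10 q, the cluster carried its strongest peaks at DDX39B and PRRC2A, followed by LTB and AIF1, and weaker ones elsewhere. Within their own lists the DDX39B and PRRC2A peaks lay at percentiles 92.0 to 97.8 of −log10 q. The LTB peak lay at 57.6 to 84.4, and at 46.9 to 69.4 of fold enrichment. Of the 117 peaks, 108 lay in 10 consensus regions, runs of 500 bp bins that were at least 250 bp covered in at least 3 of the 12 libraries. The remaining 9 lay in none. Distances below run from the first base of TNF to the middle of a region. Besides the LTB start, peaks were present in 12 of 12 libraries at 5 of these regions: 33.6 kb before TNF at the start of DDX39B, an RNA helicase gene; 28.1 kb before it at the starts of ATP6V1G2 and NFKBIL1; 16.6 kb before it at the end of NFKBIL1; 38.9 kb after it at AIF1; and 45.2 kb after it at the start of PRRC2A.

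The other regions were less regular. A region 59.6 kb before TNF, in no annotated gene, had a peak in 8 libraries, and one 46.3 kb before it, at MCCD1, in 11. A region 7.3 kb before TNF lay inside the predicted first part of the LTA span and had a peak in 11, and one 22.4 kb after it, in no annotated gene, in 6. By the authors' −log10 q, PRRC2A or DDX39B had the strongest of these peaks in 12 of 12 libraries. The LTB peak came next in 8 libraries and behind AIF1 in the other 4.

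**Figure D1:**
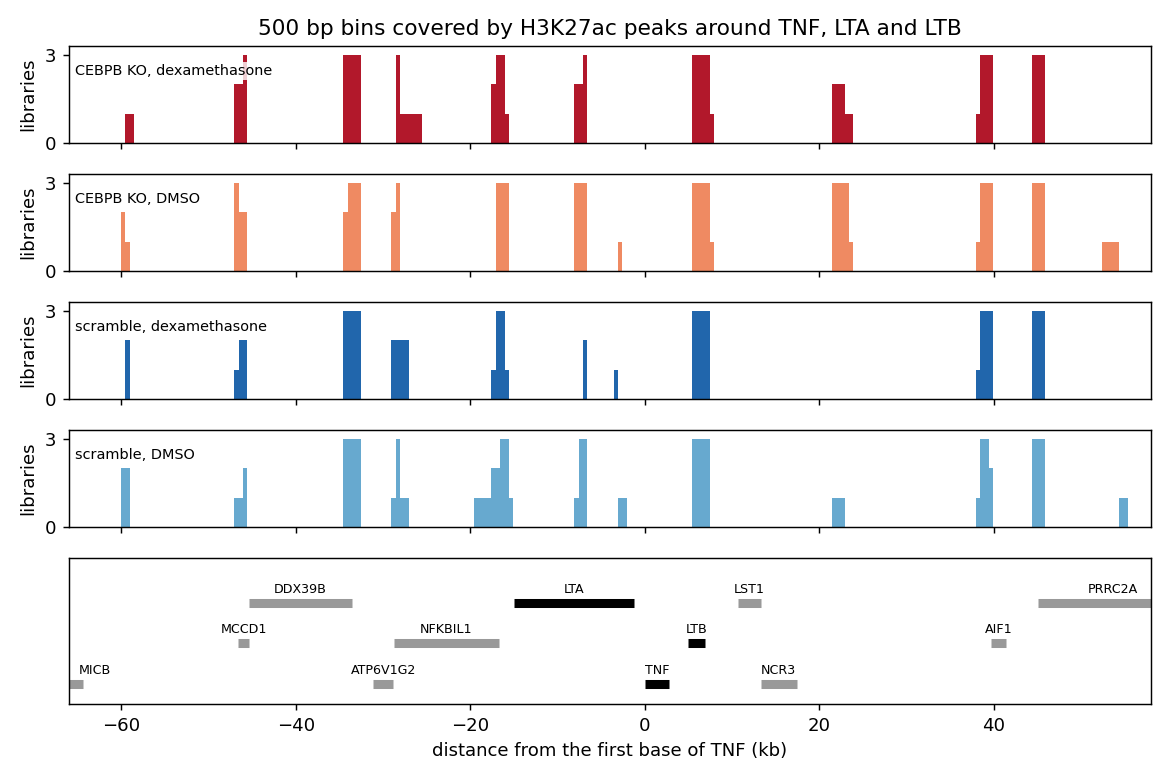
For each group, the number of libraries (0 to 3) in which a 500 bp bin was at least 250 bp covered, plotted against distance from the first base of TNF in kb. Spans of protein-coding genes are drawn below, TNF, LTA and LTB in black. No bin over the body of TNF is covered in any group, the bins at the LTB start are covered in all 3 libraries of each group, and those 22.4 kb after TNF are empty in scramble cells with dexamethasone.

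Peaks covered 13.8, 14.3 and 13.7 kb of the 122 kb in knockout cells with dexamethasone and 15.6, 15.4 and 15.4 kb in knockout cells with DMSO. They covered 11.3, 9.71 and 9.51 kb in scramble cells with dexamethasone and 12.9, 13.3 and 14.9 kb in scramble cells with DMSO. Scramble cells with dexamethasone had the least, and none of their libraries reached the lowest of the other groups. These lengths are not normalised. Over the genome the same libraries covered 59.7, 48.0 and 50.3 Mb, and replicates 2 and 3 had the shortest totals of the 12 libraries. The mean was 52.7 Mb, against 58.9 Mb in scramble cells with DMSO, and the part of this was not tested. The number of peaks overlapped between the groups, at 8, 9 and 12, then 10, 12 and 10, then 10, 8 and 8, then 10, 9 and 11, in the same order of groups.

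The TNF promoter, from 250 bases before the start to 50 bases after it, had 0 covered bases in 12 of 12 libraries. The first annotated LTA start was likewise at 0 in all 12. The second was touched in 2 libraries, with 139 of 300 bp in scramble cells with dexamethasone replicate 2 and 82 bp in scramble cells with DMSO replicate 3. Among 15812 protein-coding genes with a promoter window, 33.8% were touched in no library and 54.7% in all 12, so TNF fell in the smaller of these sets. The printed TNF sequence, with its TATA box and C/EBP core, thus lay outside the peaks of every library. Between the LTA start and TNF, 4 libraries had a peak, from 3.4 kb to 1.9 kb before TNF. They were knockout cells with DMSO replicates 2 and 3, scramble cells with dexamethasone replicate 2 and scramble cells with DMSO replicate 3. Their −log10 q was 0.749 to 1.86, at percentiles 9.03 to 35.5 of their own lists, and no group had such a peak in all of its libraries.

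Among the 3 genes, the LTB start, with its kappaB-type matches, was the one under a peak in every library. Its promoter was covered over 300 of 300 bp in 12 of 12 libraries. The 2000 bp region there (chr6:31581001-31583000, 6.4 kb after the TNF start) was covered over 2000, 1967 and 1967 bp in knockout cells with dexamethasone and over 1967, 2000 and 2000 bp in knockout cells with DMSO. It was covered over 1961, 1977 and 1979 bp in scramble cells with dexamethasone and over 1957, 1978 and 1961 bp in scramble cells with DMSO. The peak filled the region in every group, so its covered length left little room for a difference. Under the limma test described below, no contrast passed at this region, and the log2 differences between groups lay between −0.01 ± 0.03 and 0.02 ± 0.03 (SE).

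The authors' own values for the LTB peak varied more than its width. Its −log10 q was 14.6, 14.5 and 14.4 in knockout cells with dexamethasone and 19.6, 18.9 and 22 in knockout cells with DMSO. It was 8.58, 6.09 and 6.09 in scramble cells with dexamethasone and 10.1, 7.43 and 10.7 in scramble cells with DMSO. The values did not overlap between the genotypes. Their percentiles within each list did not overlap either, at 78.9 to 84.4 in knockout libraries and 57.6 to 76.0 in scramble libraries. A q-value also moves with read depth, which is unknown, so no difference is drawn from them, and the cause was not tested. The fold enrichment of the same peak was 3.85 to 4.11 in knockout cells with dexamethasone, 4.04 to 4.12 in knockout cells with DMSO, 3.63 to 3.88 in scramble cells with dexamethasone and 3.66 to 4.20 in scramble cells with DMSO. These values too are the authors' and rank peaks within a list only.

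Among the 10 regions, the only one to pass the limma test described below, in 1 contrast, lay 7.3 kb before TNF (chr6:31567501-31569000). It overlaps LTA only through a predicted transcript, and the non-coding gene LOC100287329. Peaks covered 1473, 1463 and 620 bp of it in knockout cells with dexamethasone and 1500, 1388 and 1188 bp in knockout cells with DMSO. They covered 398, 398 and 0 bp in scramble cells with dexamethasone and 1157, 1017 and 812 bp in scramble cells with DMSO. Scramble cells with dexamethasone were the lowest group, apart from all others, and the knockout groups overlapped each other.

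Differences over all regions were tested with limma on log2(covered bp + 250), quantile-normalised, with Benjamini-Hochberg adjusted p-values and a threshold of 0.05. With dexamethasone in both, knockout cells averaged 1185 ± 490 bp and scramble cells 265 ± 230 bp in the region 7.3 kb before TNF (SD, n = 3 each). Its coverage rose in the knockout cells by log2 1.54 ± 0.38 (SE, adjusted p = 0.028), the only call among the 10 regions in that comparison. Of all 54601 regions 10.8% were called in it, so 1 of 10 was near that share and the count says nothing particular of the cluster. The call was lost with an offset of 100 bp (adjusted p = 0.051), with only peaks of −log10 q of at least 2 (adjusted p = 0.18), and without knockout cells with dexamethasone replicate 1 (log2 1.38, adjusted p = 0.099) or replicate 2 (log2 1.40, adjusted p = 0.094). The group means with DMSO were 1359 ± 158 bp in knockout cells and 995 ± 174 bp in scramble cells. The groups did not overlap, but the difference of log2 0.35 ± 0.38 did not pass (adjusted p = 0.71).

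Dexamethasone in scramble cells gave a log2 difference of −1.37 ± 0.38 at the region 7.3 kb before TNF. All 3 treated libraries were below all 3 with DMSO, and the difference did not pass (adjusted p = 0.27). In knockout cells the drug difference there was −0.18 ± 0.38 (adjusted p = 1.0), with overlapping groups. The difference between the drug responses, knockout minus scramble, was log2 1.19 ± 0.54 and did not pass (adjusted p = 0.86), so the responses were not shown to differ. By limma, 0 of the 10 regions were called for the drug in scramble cells, with 1 at an unadjusted p under 0.05, and 0 were called in knockout cells, with 0 at that level. For the difference of responses 0 were called, with 0 at an unadjusted p under 0.05. Of all regions 0.817% were called for the drug in scramble cells, 0.615% in knockout cells and 0.654% for the difference of responses. At an unadjusted p under 0.05 there were 3906, 3733 and 3145 of all 54601 regions, in the same order.

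The region 22.4 kb after TNF (chr6:31597001-31599000) lay in no annotated gene and was present mostly in knockout cells. Peaks covered 0, 2000 and 1472 bp of it in knockout cells with dexamethasone and 2000, 1651 and 1957 bp in knockout cells with DMSO. The 3 scramble libraries with dexamethasone were listed at 0, and scramble cells with DMSO had 1628, 0 and 0 bp. Knockout replicate 1 with dexamethasone and scramble replicate 1 with DMSO were the exceptions to the split by genotype. With DMSO the groups did not overlap, the log2 difference was 2.11 ± 0.91, and it did not pass (adjusted p = 0.24); without the one scramble library that had the peak it did (log2 3.06, adjusted p = 0.048). With dexamethasone the log2 difference was 1.98 ± 0.91 (adjusted p = 0.25), and without knockout replicate 1 it passed (log2 2.97, adjusted p = 0.042). By limma 0 of the 10 regions were called between knockout and scramble cells with DMSO, against 9.26% of all regions. At an unadjusted p under 0.05 there was 1, against 10562 of all 54601 regions. The peaks here were weak, with −log10 q of 0.643 to 1.62. This region had a peak in 6 libraries, only 1 of them scramble, so it met the rule of 3 libraries through knockout cells. Values against groups near 0 depend on the offset, and no support for a split by genotype is drawn from its tests.

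At the end of NFKBIL1, 16.6 kb before TNF (chr6:31558001-31560000), peaks covered 1484, 1834 and 892 bp in knockout cells with dexamethasone and 1625, 1284 and 1681 bp in knockout cells with DMSO. They covered 1730, 715 and 645 bp in scramble cells with dexamethasone and 1125, 1868 and 1938 bp in scramble cells with DMSO. All groups overlapped, and no contrast passed the threshold. With only peaks of −log10 q of at least 2, the difference between knockout and scramble cells with DMSO was log2 2.79 (adjusted p = 0.026), against −0.08 ± 0.32 (adjusted p = 0.95) with all peaks. The deposited −log10 q there was 3.60 to 3.69 and 3.05 to 6.83 in the knockout groups with dexamethasone and with DMSO, against 0.765 to 2.05 and 0.929 to 1.67 in the scramble groups.

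**Figure D2:**
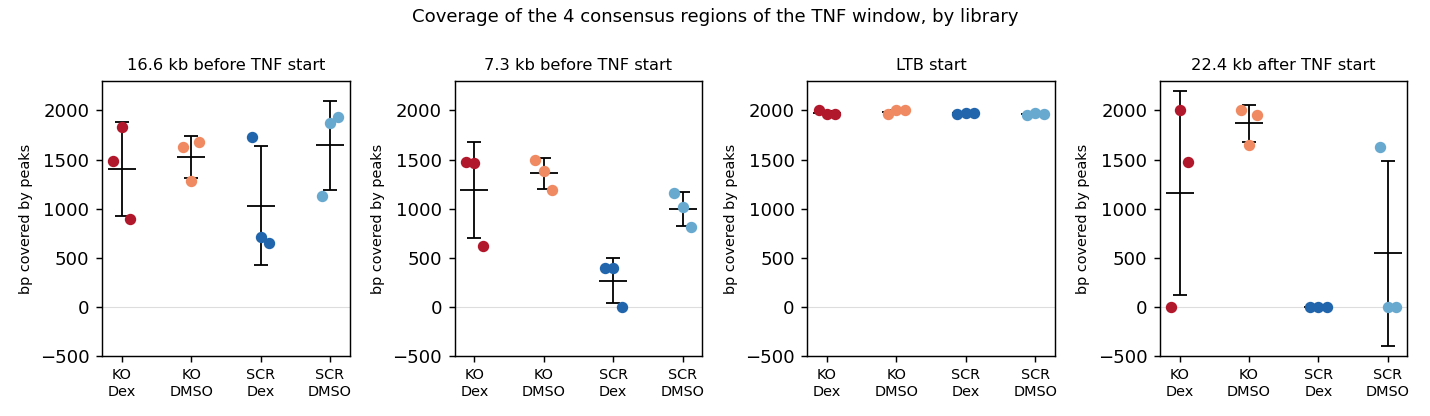
Base pairs covered by peaks in the 4 consensus regions of the 25 kb window around TNF, 1 point per library, with the mean (long dash) and SD (bars) of each group of 3 (KO, knockout; SCR, scramble; Dex, dexamethasone). The LTB start is filled in all 12 libraries, the region 7.3 kb before TNF is lowest in scramble cells with dexamethasone (0 to 398 bp), and the region 22.4 kb after TNF is at 0 in 6 libraries, 5 of them scramble.

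Bin by bin, 1 of the 55 bins in the cluster was covered in all 3 scramble libraries with DMSO and in none of the 3 with dexamethasone. It was the one from 31568001 to 31568500, inside the region 7.3 kb before TNF, and 0.424% of 292998 bins in the genome did the same. Another bin, from 31598501 to 31599000 and inside the region 22.4 kb after TNF, was covered in all 3 knockout libraries with DMSO and in 0 of 3 scramble libraries with DMSO, as were 1.69% of all bins. With a bin counted at any covered base or only when wholly covered, 0 bins of the cluster met either rule.

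Coverage was then summed from 25 kb before to 25 kb after each gene and tested for 17155 genes. The windows of TNF and LTB held the same peaks in every library and therefore the same values. They had 5.17, 8.20 and 5.21 kb covered in knockout cells with dexamethasone and 8.09, 7.13 and 8.02 kb in knockout cells with DMSO. They had 4.44, 3.40 and 2.62 kb in scramble cells with dexamethasone and 6.28, 6.94 and 6.35 kb in scramble cells with DMSO. Scramble cells with dexamethasone were again below all other groups. The LTA window reaches further upstream and had 9.59, 10.4 and 8.13 kb in knockout cells with dexamethasone and 10.2, 9.73 and 10.8 kb in knockout cells with DMSO. It had 7.03, 6.67 and 5.10 kb in scramble cells with dexamethasone and 8.89, 9.58 and 9.47 kb in scramble cells with DMSO. As for TNF, scramble cells with dexamethasone were lowest and knockout cells with DMSO had the highest mean, in windows that share peaks.

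With dexamethasone in both, coverage within 25 kb of all 3 genes, in windows that share peaks, rose in knockout cells relative to scramble cells. The means were 6.19 ± 1.74 and 3.49 ± 0.909 kb for TNF and LTB, and 9.37 ± 1.15 and 6.26 ± 1.03 kb for LTA (SD, n = 3 each). On the scale log2(covered bp + 500), the difference was 0.67 ± 0.17 (SE) for TNF and LTB (limma, adjusted p = 0.036) and 0.49 ± 0.12 for LTA (adjusted p = 0.027). Of all genes tested, 7.62% were called in this comparison, and in 26.6% the groups did not overlap. In windows of 5 kb the log2 differences were −0.05 for TNF, 0.00 for LTB and 0.65 for LTA, and none passed. With the weakest peaks dropped until every library covered the same length, neither 25 kb difference passed. The limma adjusted p was then 0.27 for TNF and LTB and 0.29 for LTA. Summed coverage around the 10 plasma cell markers moved the same way, with 82.6 to 84.8 kb in knockout cells and 68.2 to 74.6 kb in scramble cells, both with dexamethasone. With DMSO it was 86.9 to 88.7 kb in knockout cells and 68.5 to 84.6 kb in scramble cells, again without overlap. The part of this and of the chromosome 6 share given above, which also moved with genotype, was not tested.

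The calls rested on single libraries. For TNF and LTB the adjusted p was 0.12 without knockout cells with dexamethasone replicate 2 (log2 0.51) and 0.13 without scramble cells with dexamethasone replicate 3 (log2 0.54). It was 0.056 without knockout cells with dexamethasone replicate 3, 0.067 without scramble cells with dexamethasone replicate 2, and 0.052 and 0.051 without knockout cells with DMSO replicates 2 and 3, which enter only the estimate of the spread. For LTA it was 0.091 and 0.093 without knockout cells with dexamethasone replicates 1 and 2, and 0.064 and 0.10 without scramble cells with dexamethasone replicates 1 and 3. Every one of these fits kept the knockout higher, with log2 0.51 to 0.76 for TNF and 0.40 to 0.58 for LTA over all 12 libraries left out in turn.

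With DMSO in both, the means were 7.75 ± 0.532 kb in knockout cells and 6.52 ± 0.359 kb in scramble cells for TNF and LTB. For LTA they were 10.2 ± 0.51 kb in knockout cells and 9.31 ± 0.371 kb in scramble cells. The groups did not overlap for any of the 3 genes, as for 22.2% of all genes. The log2 differences of 0.19 ± 0.17 for TNF and LTB (adjusted p = 0.62) and 0.07 ± 0.12 for LTA (adjusted p = 0.82) did not pass, while 7.32% of all genes were called. With only peaks of −log10 q of at least 2 the TNF and LTB difference was 0.72 (limma, adjusted p = 0.064), against 0.62 (adjusted p = 0.10) with dexamethasone. At equal covered length it was 0.61 (adjusted p = 0.20), against 0.51 (adjusted p = 0.27) with dexamethasone. None of these passed, and a genotype difference confined to dexamethasone was not shown.

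Dexamethasone in scramble cells left all 3 genes with less coverage, again without overlap, in a comparison where 11.0% of all genes did not overlap. The log2 differences were −0.70 ± 0.17 for TNF and LTB (adjusted p = 0.24) and −0.44 ± 0.12 for LTA (adjusted p = 0.33), and neither passed. Only 0.0233% of all genes were called there, 4 of 17155. With only peaks of −log10 q of at least 2 the TNF and LTB difference was 0.00. In knockout cells the drug differences were −0.22 ± 0.17 for TNF and LTB (adjusted p = 0.89) and −0.02 ± 0.12 for LTA (adjusted p = 1.0). All 3 genes had overlapping groups there, 0.0175% of all genes were called and 12.7% had groups that did not overlap. The difference of the drug responses was log2 0.48 ± 0.24 for TNF and LTB (adjusted p = 0.94) and 0.42 ± 0.17 for LTA (adjusted p = 0.89). It did not pass for any of them and was called for 0.0117% of all genes.

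**Figure D3:**
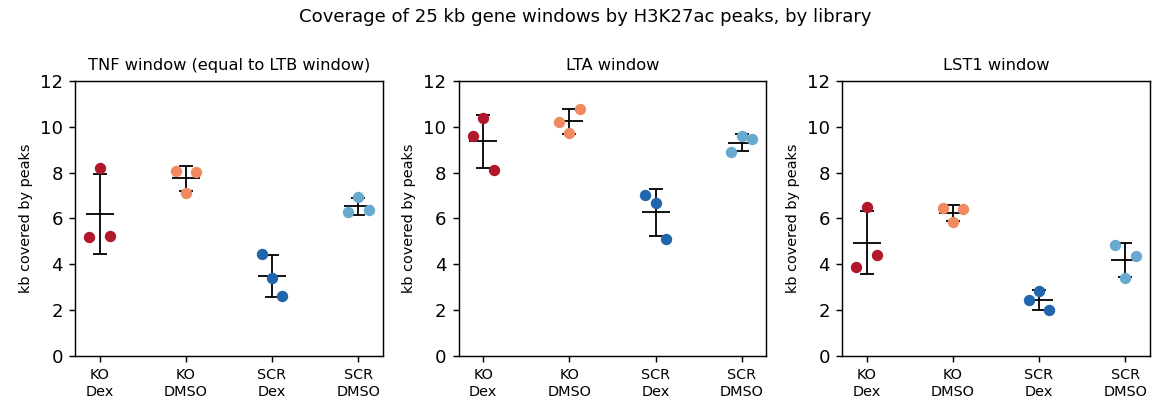
Kilobases covered by peaks from 25 kb before to 25 kb after TNF, LTA and LST1, 1 point per library, with the mean (long dash) and SD (bars) of each group of 3. Scramble cells with dexamethasone are lowest in each panel, at 2.62 to 4.44 kb for TNF, and the knockout libraries with dexamethasone lie above them.

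The 12 protein-coding genes of the interval share peaks, so their windows are not separate observations. In knockout against scramble cells with dexamethasone, 5 of the 12 were called higher and 0 lower, where 7.62% of all genes were called in either direction. They were TNF, LTA, LTB and 2 neighbours downstream. LST1, a membrane adaptor gene of leukocytes, had 3.88, 6.49 and 4.42 kb in knockout cells and 2.45, 2.85 and 1.98 kb in scramble cells, a log2 difference of 0.80 ± 0.18 (adjusted p = 0.017). NCR3, which encodes an activating receptor of natural killer cells, had 5.46, 8.03 and 5.82 kb in knockout cells and 4.01, 4.39 and 3.52 kb in scramble cells, a log2 difference of 0.55 ± 0.14 (adjusted p = 0.038). Both windows hold the LTB start and the regions 7.3 kb before and 22.4 kb after TNF. LST1 did not pass without knockout replicate 2 (adjusted p = 0.066) or scramble replicates 1 or 3 with dexamethasone (0.064 and 0.070). NCR3 did not pass in 7 of the 12 fits that left a library out, with adjusted p up to 0.14. Over 13 other alternatives LST1 passed in 7 and NCR3 in 6. Both were lost with only peaks of −log10 q of at least 2 (log2 0.42 and 0.25), at equal covered length (0.42 and 0.28), in windows of 5, 50 and 100 kb and with only the groups compared, and at 5 kb LST1 differed by log2 0.01 (adjusted p = 0.98).

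The other genes of the interval stayed under the threshold in all comparisons. For MICB, MCCD1, DDX39B, ATP6V1G2, NFKBIL1, AIF1 and PRRC2A the log2 differences between knockout and scramble cells with dexamethasone were 0.14 to 0.40. Groups did not overlap for 8 of the 12 genes there, all higher in knockout cells, against 26.6% of all genes in either direction. With DMSO this held for 7 of the 12, all higher in knockout cells, against 22.2%. Under the drug it held for 8 in scramble cells, all lower with dexamethasone, against 11.0%, and for 0 in knockout cells, against 12.7%. These counts use covered length before normalisation, and total covered length differed between the libraries. By limma 0 of the 12 were called for the drug in scramble cells, where 0.0233% of all genes were called. At an unadjusted p under 0.05 there were 6, in windows that share peaks, against 1316 of all 17155 genes. In knockout cells 0 were called (0.0175% of all genes), with 0 at that level, against 1091 of 17155. Between knockout and scramble cells with DMSO 0 were called (7.32% of all genes), with 2 at that level, against 3409 of 17155. For the difference of responses 0 were called (0.0117% of all genes), with 1 at that level, against 909 of 17155.

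The receptors that bind these cytokines were too few for a count of calls to set them apart from other genes. TNFRSF1A and TNFRSF1B encode the TNF receptors, LTBR the lymphotoxin beta receptor and TNFRSF14 a receptor of the related ligand TNFSF14. By limma 0 of the 4 were called in any of the 5 contrasts, with 0 at an unadjusted p under 0.05. Of 17155 genes, 3458 reached that level for knockout with dexamethasone and 3409 with DMSO. For the drug 1316 did in scramble cells and 1091 in knockout cells, and 909 did for the difference of responses. Over all genes 7.62% were called for knockout with dexamethasone, 7.32% with DMSO, 0.0233% for the drug in scramble cells, 0.0175% in knockout cells and 0.0117% for the difference of responses, so 0 of 4 is not a result about the receptors. The 2 with the smallest p between knockout and scramble cells with dexamethasone were TNFRSF1A (log2 −0.26 ± 0.17, adjusted p = 0.48) and TNFRSF1B (log2 −0.22 ± 0.25, adjusted p = 0.73). The median over the 4 was −0.18, against −0.01 over all genes tested.

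Genes that carry the signal inward were also without calls, and the same shares over all genes apply to them (7.62% and 7.32% for genotype, at most 0.0233% for the drug). Of 25 genes of TNF receptor signalling, such as the adaptor genes TRADD and TRAF2 and the kinase gene RIPK1, limma called 0 in any contrast. At an unadjusted p under 0.05 there were 4 between knockout and scramble cells with dexamethasone, 2 with DMSO, 1 for the drug in scramble cells, 0 in knockout cells and 1 for the difference of responses. Over all 17155 genes the counts at that level were 3458, 3409, 1316, 1091 and 909, in the same order. Of 6 genes of TNF processing and mRNA decay, such as the sheddase gene ADAM17 and ZFP36, whose product destabilises TNF mRNA, 0 were called in any contrast, with 1 at that level with dexamethasone and 0 in the others.

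Among 12 genes of NF-kB subunits, inhibitors and feedback, 1 was called for genotype with each treatment, near the 7.62% and 7.32% called over all genes, so the count says nothing particular of the list. NFKB1, which encodes the p105 precursor of the p50 subunit, fell in knockout cells under both treatments. It had 2.77, 4.37 and 3.67 kb in knockout cells with dexamethasone and 6.52, 5.27 and 4.60 kb in scramble cells with dexamethasone. With DMSO it had 2.29, 1.70 and 2.63 kb in knockout cells and 4.60, 4.94 and 5.45 kb in scramble cells. The groups did not overlap under either treatment. The log2 difference was −0.63 ± 0.17 with dexamethasone (adjusted p = 0.042) and −1.05 ± 0.17 with DMSO (adjusted p = 0.0023). The first did not pass in 9 of the 12 fits that left a library out (adjusted p up to 0.15), and the second passed in all 12. Over 13 other alternatives the first passed in 7 and the second in 12. The first was −0.15 (adjusted p = 0.81) in a 5 kb window and −0.50 (adjusted p = 0.16) at equal covered length, and the second was −0.66 (adjusted p = 0.12) in a 5 kb window. NFKBIA, which encodes the inhibitor induced by glucocorticoids and by NF-kB, averaged 2.11 ± 0.247 kb in knockout cells with dexamethasone and 2.76 ± 0.186 kb in knockout cells with DMSO (SD, n = 3 each). It averaged 2.13 ± 0.298 kb in scramble cells with dexamethasone and 2.4 ± 0.391 kb in scramble cells with DMSO, and no contrast was called.

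Of the 15 other ligand genes of the TNF superfamily, 14 had enough coverage to be tested, and TNFSF11, covered in 2 libraries, did not. Between knockout and scramble cells with dexamethasone 4 were called higher and 0 lower, and with DMSO 4 higher and 1 lower. The shares called over all genes were 7.62% and 7.32%, as given above. The median log2 difference over the 14 was 0.41 with dexamethasone and 0.19 with DMSO, against −0.01 and 0.01 over all genes. CD40LG, TNFSF13B and TNFSF15 met the filter of a covered base in at least 3 libraries only through knockout cells. TNFSF14 met it only through scramble cells. These members enter the counts and medians, so no support for a difference of the list is drawn from them. The genes called higher were TNFSF8, CD40LG, TNFSF10 and FASLG under both treatments.

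TNFSF8, which encodes CD30 ligand, had 5.20, 6.14 and 6.23 kb in knockout cells with dexamethasone and 4.17, 4.49 and 5.58 kb in knockout cells with DMSO. It had 2.27, 2.04 and 2.31 kb in scramble cells with dexamethasone and was listed at 0 in all 3 scramble libraries with DMSO. It was the one gene of the family called for the drug in scramble cells (log2 2.53 ± 0.13, adjusted p = 6.1e-06), and the groups of the 2 genotypes were apart under each treatment (log2 1.16 ± 0.13, adjusted p = 0.00016, with dexamethasone, and 3.31 ± 0.13, adjusted p = 1.4e-08, with DMSO). Values against a group at 0 depend on the offset and are not folds. The drug call in scramble cells was lost with only peaks of −log10 q of at least 2 (log2 1.56, adjusted p = 0.15), and both genotype calls passed in 13 of 13 alternatives.

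CD40LG, which encodes the helper T cell ligand of CD40, had 1.60, 2.73 and 1.55 kb in knockout cells with dexamethasone and 0, 0 and 0.265 kb in scramble cells with dexamethasone. With DMSO it had 2.05, 1.55 and 2.12 kb in knockout cells and 0.367, 0 and 0 kb in scramble cells. The log2 differences were 2.02 ± 0.24 with dexamethasone (adjusted p = 0.00027) and 2.10 ± 0.24 with DMSO (adjusted p = 0.00019). Each knockout library was above each scramble library. With only peaks of −log10 q of at least 2 the DMSO difference was 1.37 and did not pass (adjusted p = 0.099). CD40LG was covered in 8 libraries and met the filter of 3 libraries only through knockout cells. Its values against groups near 0 depend on the offset, and no support is drawn from its tests.

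TNFSF10, which encodes the death ligand TRAIL, had 3.41, 3.18 and 2.44 kb in knockout cells with dexamethasone and 0.742, 0.741 and 0.763 kb in scramble cells with dexamethasone. With DMSO it had 3.26, 3.98 and 4.11 kb in knockout cells and 2.05, 0.746 and 0.743 kb in scramble cells. Here too the genotypes were apart, by log2 1.43 ± 0.23 with dexamethasone (adjusted p = 0.0025) and 1.45 ± 0.23 with DMSO (adjusted p = 0.0023). With DMSO the difference was 0.10 (adjusted p = 0.68) when only peaks of −log10 q of at least 2 were used and 1.11 (adjusted p = 0.066) at equal covered length. With dexamethasone it was 0.43 (adjusted p = 0.060) with only such peaks and 0.82 (adjusted p = 0.069) in a 5 kb window.

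FASLG, which encodes Fas ligand, had 0.906, 1.15 and 0.949 kb in knockout cells with dexamethasone and 0.491, 0 and 0 kb in scramble cells with dexamethasone. With DMSO it had 2.88, 1.11 and 1.98 kb in knockout cells and 0, 0.300 and 0.375 kb in scramble cells. The log2 differences were 1.32 ± 0.31 with dexamethasone (adjusted p = 0.023) and 1.82 ± 0.31 with DMSO (adjusted p = 0.0035). All scramble values lay under the offset of 500 bp, so these differences depend on it and are not folds. With dexamethasone it did not pass without any 1 of the knockout libraries with the drug (adjusted p of 0.067, 0.066 and 0.068) or without scramble replicates 2 or 3 with the drug (0.086 and 0.091). It passed in 8 of 13 other alternatives with dexamethasone, with log2 0.44 (adjusted p = 0.65) in a 100 kb window and 0.78 (adjusted p = 0.18) with only peaks of −log10 q of at least 2. With DMSO it passed in 12 of 13, the exception being a 5 kb window (log2 0.47, adjusted p = 0.41). TNFSF14, which encodes LIGHT, a ligand of the LTB receptor, was listed at 0 in all 3 knockout libraries with DMSO and had 0.568, 0.816 and 1.51 kb in scramble cells with DMSO. It fell by 1.39 on the log2 scale (SE 0.36, adjusted p = 0.038), and did not pass in 7 of the 12 fits that left a library out (adjusted p up to 0.14). Of 13 other alternatives it passed in 10, and it was −0.56 (adjusted p = 0.46) in a 50 kb window, −0.04 (adjusted p = 0.92) in a 100 kb window and −1.36 (adjusted p = 0.092) with no gene filter. TNFSF14 met the filter of 3 libraries through scramble cells, where it was higher, and its value against a group at 0 depends on the offset.

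Several of these ligands are made by activated T cells, so T cell markers are given beside them. Of 8 marker genes, 4 were covered in all 12 libraries and TRAT1 in none. CD2 had 2.19, 2.12 and 1.35 kb in knockout cells with dexamethasone, 0.315, 1.64 and 1.19 kb in knockout cells with DMSO and 0 in the 6 scramble libraries. It rose in knockout cells by log2 2.24 ± 0.32 with dexamethasone (adjusted p = 0.001) and 1.46 ± 0.32 with DMSO (adjusted p = 0.016), the second not without single libraries (adjusted p of 0.051 to 0.061 in 4 fits). With only peaks of −log10 q of at least 2 neither passed (log2 0.98, adjusted p = 0.34, with dexamethasone, and 1.27, adjusted p = 0.21, with DMSO). CD2 met the filter of 3 libraries only through knockout cells, and values against a group at 0 depend on the offset. No support is drawn from its tests. Of the 7 T cell markers tested, 4 were above 0 and 3 below with dexamethasone, and 2 above and 5 below with DMSO. CD2 was the 1 call in each, where 7.62% and 7.32% of all genes were called. The defining marker CD3E had 0 to 0.269 kb in knockout cells with dexamethasone, 0 to 0.696 kb in knockout cells with DMSO, 0 to 1.17 kb in scramble cells with dexamethasone and 1.01 to 1.34 kb in scramble cells with DMSO. The summed coverage of the 8 was 21.5 to 26.6 kb and 20.8 to 30.6 kb in the knockout groups with dexamethasone and DMSO, against 17.2 to 22.9 kb and 21.4 to 28.3 kb in the scramble groups. Their part in the result was not tested.

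**Figure D4:**
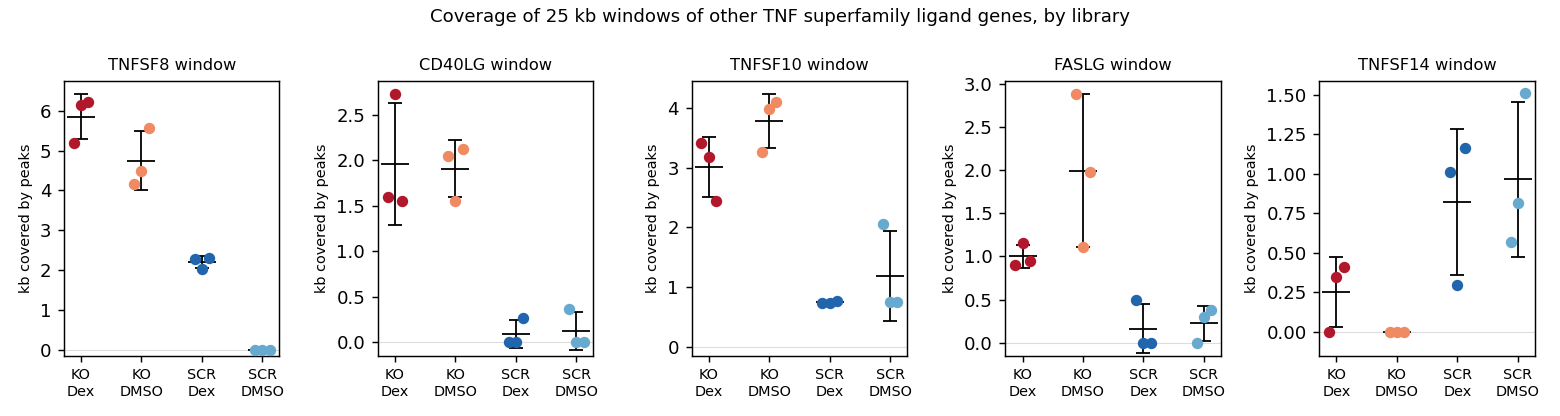
Kilobases covered by peaks in the 25 kb windows of the 5 other TNF superfamily ligand genes called between knockout and scramble cells, 1 point per library, with the mean (long dash) and SD (bars) of each group of 3. TNFSF8, CD40LG, TNFSF10 and FASLG are higher in every knockout library than in any scramble library given the same treatment, and TNFSF14 is at 0 in the knockout libraries with DMSO.

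Gene windows most like that of TNF across the 12 libraries were sought only outside the cluster. Windows overlapping the interval were left out, LTB among them, which had the same values as TNF. So were windows overlapping that of a gene ranked higher. By Pearson's r of normalised log2 coverage over 17155 genes, the highest that remained were SRSF4 (0.864), ITPR1 (0.860), NUCB1 (0.858), PRKDC (0.856) and ZNF226 (0.855). All points share the 12 libraries and their covered length. SRSF4, a splicing factor gene, had 8.41, 8.72 and 7.44 kb in knockout cells with dexamethasone and 10.8, 9.89 and 10.1 kb in knockout cells with DMSO. It had 8.12, 5.83 and 4.00 kb in scramble cells with dexamethasone and 7.46, 8.49 and 9.53 kb in scramble cells with DMSO. As at TNF, the lowest values were in scramble cells with dexamethasone, although the groups overlapped.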

How the data were processed

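The submitters' processing notes name Bowtie2 2.4.2, the build hg38 and the peak caller MACS3 3.0. Per the labels, each assay used 100000 cells. Which library, if any, served as control is not given in the sources used here. The 12 deposited files are lists of broad peaks, 1 per library. Their deposited start and end are positions counted from 0, of no other unit. In the same files the deposited score equals 10 times −log10 q in 100% of peaks. The authors' signal value is a ratio, the fold enrichment over background. The deposited −log10 p-value and −log10 q-value stand beside it, and the lowest −log10 q of a list was 0.523 to 0.535. With no counts, depth is unknown and no counting interval can be given.

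Covered base pairs were summed per gene window of 25 kb either side, per consensus region and per 500 bp bin. A gene needed a covered base in at least 3 libraries. Tests used limma 3.58.1 in R 4.3.3 (trend and robust empirical Bayes, all 12 libraries, 8 residual degrees of freedom, 4 group means, no covariate) on quantile-normalised log2(bp + 500) for genes and log2(bp + 250) for regions. The Benjamini-Hochberg adjustment ran over all 17155 genes or 54601 regions. The procedure was tested on simulated data. Tables and plots used Python 3.11.15, NumPy 2.4.6, pandas 2.3.3 and Matplotlib 3.10.9. Gene names, spans and promoters came from RefSeq (GRCh38.p14).

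The genes, lists and tests were chosen with earlier results of these data known. Named were TNF, LTA and LTB, and the other protein-coding genes and consensus regions of the interval. Also named were called members of each list, or else those of smallest p, and the 5 genes most like TNF outside the interval. CEBPB, NFKBIA and the markers given were named outside that rule after their values were seen. Alternatives covered the window, peak strength, equal covered length, offset, normalization, gene filter, moderation, libraries in the fit, replicate block and each library left out.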

Additional observations from a re-analysis of the deposited data

Results flagged for a closer look

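On the log2 scale, the response of TNFSF8 to dexamethasone differed between the genotypes by a test of the difference itself. The drug difference in knockout cells minus that in scramble cells was −2.15 ± 0.18 (limma, adjusted p = 0.0017). TNFSF8 was 1 of 2 genes called in that contrast, 0.0117% of the 17155 tested. TNFSF8 had 5.20, 6.14 and 6.23 kb in knockout cells with dexamethasone and 4.17, 4.49 and 5.58 kb in knockout cells with DMSO, against 2.27, 2.04 and 2.31 kb and 0 in scramble cells. The difference did not pass with only peaks of −log10 q of at least 2 (−1.44, adjusted p = 0.69). Scramble cells with DMSO were at 0 in all 3 libraries, so their response and this difference depend on the offset of 500 bp. Neither is a fold. In knockout cells the libraries with and without the drug overlapped.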

How the results depend on the processing

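Calls at TNF, LTA and LTB were few and close to the threshold, and they concern knockout against scramble cells with dexamethasone. There the log2 value for TNF and LTB fell below the threshold at equal covered length (0.51, adjusted p = 0.27), with only peaks of −log10 q of at least 2 (0.62, 0.10), with only the groups compared (0.67, 0.10), with no gene filter (0.67, 0.058) and with no normalization (0.74, 0.054). LTA did so at 0.35 (0.29), 0.36 (0.11) and 0.50 (0.078) under the first 3, and at 0.50 (0.051) with scaling to the library total. Windows of 5 kb gave −0.05 for TNF, 0.00 for LTB and 0.65 for LTA (adjusted p = 0.37); 50 kb gave 0.39 for LTB (0.065); 100 kb gave 0.24 for TNF (0.065) and 0.18 for LTB (0.18). Of the 13 alternatives with all libraries, TNF passed in 6, LTA in 8 and LTB in 5. With each library left out, TNF and LTB ranged over 0.51 to 0.76 and passed in 6 of 12 fits, and LTA over 0.40 to 0.58 and passed in 8. The cause was not tested.

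At the windows of TNF, LTA and LTB, values of the other contrasts changed sign under some settings and passed under none. The difference of drug responses was −0.09 at equal covered length and −0.10 with strong peaks for TNF and LTB, and −0.02 and −0.03 for them with 5 kb windows. The drug difference in scramble cells was 0.00 for TNF and LTB with strong peaks and 0.08 for LTB with 5 kb windows. In knockout cells it was 0.05 for LTB with 5 kb, 0.02 for TNF and 0.03 for LTA with 50 kb, and 0.09, 0.12 and 0.10 for TNF, LTA and LTB with 100 kb. Leaving libraries out gave −0.06 to 0.06 for LTA. Knockout with DMSO gave −0.03 for TNF and −0.20 for LTA with 5 kb, −0.03 for LTB with 100 kb, and 0.00 to 0.12 for LTA with libraries left out. For TNF and LTB it was larger with strong peaks (0.72, limma adjusted p = 0.064) and at equal covered length (0.61, adjusted p = 0.20).

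Among regions, the value 7.3 kb before TNF was 1.54 (adjusted p = 0.18) with strong peaks and 2.06 (0.051) with an offset of 100 bp for knockout with dexamethasone, and 1.07 to 1.84 with libraries left out. Its drug difference in knockout cells ranged over −0.33 to 0.12. The region 16.6 kb before TNF reversed for knockout with DMSO to 0.12 with bins in 6 libraries, 0.94 at equal covered length and 2.79 with strong peaks, where it passed (adjusted p = 0.026), and over −0.34 to 0.06 with libraries left out. With strong peaks it was 0.99 for the drug in scramble cells and −1.12 for the difference of responses, and its drug difference in knockout cells ranged over −0.28 to 0.12. The region 22.4 kb after TNF gave 0.01 for the difference of responses with bins in 6 libraries and −1.07 to 0.86 with libraries left out, −1.42 to 0.00 for the drug in scramble cells, 1.64 to 3.06 for knockout with DMSO and 1.39 to 2.97 with dexamethasone, each passing in 1 of 12 fits. It had no value at equal covered length or with strong peaks. The LTB start changed sign only around 0: it gave −0.01 for the drug in knockout cells with strong peaks, no normalization or bins in 6 libraries, 0.00 in its other reversals with all libraries, and with libraries left out −0.01 to 0.01 there, −0.01 to 0.03 for the drug in scramble cells, −0.02 to 0.02 for knockout with DMSO, −0.03 to 0.00 with dexamethasone and −0.03 to 0.01 for the difference of responses. The 2 bins that differed became 0 under both other overlap rules, and the 117 peaks stayed 117 when at least as much of a peak had to lie inside as outside.

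Over all genes, calls ranged from 886 to 2573 for knockout with dexamethasone (1308 as reported), 878 to 2434 with DMSO (1256), 3 to 54 for the drug in scramble cells (4), 0 to 33 in knockout cells (3) and 1 to 7 for the difference of responses (2). The labels do not say whether libraries of the same number were prepared together. Correlations of deviations from the group means were −0.0793 to 0.0955 between libraries of the same number. Between libraries of different numbers they were −0.0986 to 0.113, and such values cannot settle whether the samples were paired. With the replicate block TNF kept 0.67 (adjusted p = 0.039), and no call at TNF, LTA or LTB changed; NCR3 (0.054) and NFKB1 (0.069) with dexamethasone did not pass. Depth is unknown, so weak peaks that come and go cannot be told apart from peaks near the calling threshold.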
